A study of Mus musculus with 12 samples.

Results

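Interferon-stimulated genes were described in the oesophageal epithelium of C57BL/6 mice aged 6 weeks, as a given list of 40 symbols out of the 23337 gene symbols in the count files. All 40 were found, and 38 held enough counts to be tested. The exceptions were Mx2, with 75 counts over all 12 libraries, and Rsad2, with 74. The study asked how an active IKKβ kinase and loss of STAT3, alone and together, change gene expression in this epithelium.

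PolyA RNA was sequenced from 4 groups of 3 libraries each. The Ikkβca+Stat3KO group carried ED/L2-Cre+, ROSA26-StopFL-Ikk2ca+/L and Stat3L/L. Ikkβca libraries came from mice with ED/L2-Cre+ and ROSA26-StopFL-Ikk2ca+/L, and Stat3KO libraries from mice with ED/L2-Cre+ and Stat3L/L. Control mice held both ROSA26-StopFL-Ikk2ca+/L and Stat3L/L but no Cre, so that Cre itself differs between Control and each of the other groups. The series' design text writes the Rosa allele as f/f where the labels write +/L. Ikk2ca is a constitutively active form of IKKβ that stays silent behind a floxed stop until Cre acts, and the ED/L2 promoter, from Epstein-Barr virus, drives Cre in oesophageal epithelial cells. Other cells left in the sample after the epithelium was pulled from the stroma keep unrecombined alleles. Nothing in the labels ties each library to its own animal, so the p-values measure the spread between these libraries, which may be technical in part. Xist, given below, separates the library numbered 1 from the others of its group, so a group's libraries are not all from the same animals.

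Cells make interferons when they sense viral nucleic acid. Type I and type III interferons act through receptors that carry the kinases JAK1 and TYK2, and IRF9 then takes part in binding the interferon-stimulated response element (ISRE) in front of target genes. Interferon gamma signalling is known for another element, the gamma-activated site (GAS). The products of the target genes detect, modify or destroy foreign RNA, tag proteins with ISG15 or attack intracellular pathogens, and surface epithelia are known to keep a low basal level of them. IKKβ releases NF-κB, which takes part in interferon induction, while STAT3 is a transcription factor known to restrain interferon responses in some cells.

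The letters before the start of 30 of the 40 genes were in the RefSeq promoter table for GRCm38.p6, which covers the 250 bases before and 50 after each start, that is 300 bases. A core ISRE (GAAA, any 2 bases, GAAA, on either strand, overlapping matches allowed) was in a window of 15 of these 30 genes, against 3.99% of all 27025 genes in that table. A GAS core (TTC, any 3 bases, GAA, which reads the same on both strands) was in 9 of 30, against 9.55% of all genes. A κB core (GGGA, any 2 bases, TTCC, on either strand) was in 2 of 30, against 1.63%. These are letter matches and not measured binding. Only these exact cores were searched, so a site spelled otherwise, such as a κB site of other letters, is neither counted nor marked. The 150 bases before the start of 5 members are shown because they include the called member and differ in these letters. Capitals mark ISRE and GAS matches.
Xaf1, chr11:72301479-72301628, plus strand: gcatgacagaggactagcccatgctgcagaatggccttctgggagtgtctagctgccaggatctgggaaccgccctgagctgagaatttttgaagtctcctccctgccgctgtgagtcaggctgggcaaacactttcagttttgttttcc
Isg15, chr4:156200819-156200968, minus strand: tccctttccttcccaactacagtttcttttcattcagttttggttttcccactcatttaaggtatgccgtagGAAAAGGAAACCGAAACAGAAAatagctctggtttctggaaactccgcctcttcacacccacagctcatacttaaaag
Oas1a, chr5:120907526-120907675, minus strand: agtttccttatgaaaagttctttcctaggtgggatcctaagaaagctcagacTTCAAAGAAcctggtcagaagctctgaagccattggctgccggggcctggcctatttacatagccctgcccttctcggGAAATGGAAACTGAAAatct
Ifit3, chr19:34583379-34583528, plus strand: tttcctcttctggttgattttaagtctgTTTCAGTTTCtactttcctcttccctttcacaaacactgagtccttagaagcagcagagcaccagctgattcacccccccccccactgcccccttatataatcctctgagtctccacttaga
Irf1, chr11:53769864-53770013, plus strand: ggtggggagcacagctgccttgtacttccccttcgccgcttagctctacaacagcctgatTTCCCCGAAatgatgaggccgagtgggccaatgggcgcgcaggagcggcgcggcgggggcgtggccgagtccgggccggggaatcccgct
In Isg15 the capitals hold 3 overlapping ISRE matches between 78 and 57 bases before the start. Oas1a has 2 overlapping ISRE matches 20 to 5 bases before its start and a GAS match at 98 to 90. Ifit3 has 1 ISRE match on the other strand, 122 to 113 bases before the start, and Irf1 has 1 GAS match at 90 to 82. None of the 3 cores was in the Xaf1 window.

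Library totals ran from 14816468 to 30188363 counts. Stat3 was at 154 to 194 CPM (counts scaled to a common library size) in Ikkβca+Stat3KO, 158 to 239 in Ikkβca, 139 to 154 in Stat3KO and 157 to 179 in Control. The Stat3KO libraries lay below the Control libraries, by 0.22 ± 0.15 on the log2 scale (SE; edgeR quasi-likelihood adjusted p = 0.788), which did not pass the test. Counts cover the whole gene and the floxed part is not given in the labels, so transcripts without it are still counted. Ikbkb, which codes for IKKβ, was higher by 0.43 ± 0.10 log2 in the 6 libraries with active IKK2 than in the 6 without (adjusted p = 0.0373). The oesophageal keratins Krt4 and Krt13 made up 4.05% to 13.9% of all counts, and Krt5, Krt14 and Trp63 were present in every library, as the tissue label says. By replicate, the Krt4 and Krt13 share was 11.6%, 4.05% and 13.4% in Ikkβca+Stat3KO and 5.06%, 13.8% and 12.8% in Ikkβca. It was 6.01%, 6.62% and 10.4% in Stat3KO and 5.22%, 6.22% and 13.9% in Control. Ikkβca replicate 1 and Stat3KO replicate 3 stood apart in gastric markers, at a summed 51.2 and 3.33 CPM, where the other 10 libraries had at most 0.701. Most of these sums was 1 gene, Tff1, at 48.7 and 2.78 CPM. In Ikkβca replicate 1 Muc5ac was at 2.27 CPM, while Gif, Gkn1, Gkn2 and Pgc were at 0. The name gastric-rich below refers only to these sums. Xist was at 924 to 1544 CPM in the library numbered 1 of every group and at most 1.46 CPM in the others, so sex and replicate number cannot be told apart.

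At baseline the members spanned a wide range of levels. Per kilobase of the longest coding transcript, Control libraries held 29.6 ± 3.7 CPM of Ifi35 (SD, n = 3 for all these values), an interferon-induced leucine zipper protein. Trim25, a ubiquitin ligase that acts with RIG-I, had 16.2 ± 2.6 CPM per kb. Bst2, the membrane tether of budding viruses, had 15.3 ± 5.0, and Irf9 11.3 ± 1.1. Trim25 and Bst2 differed by less than the SD of either. At the low end stood Mx1 at 0.0930 ± 0.0340 and Rsad2, or viperin, at 0.101 ± 0.032 CPM per kb. Members also differed in how much libraries varied. The highest library exceeded the lowest by 1.44-fold for Parp9 and 1.46-fold for Ifi35 and Adar, but by 39.5-fold for Oas2 and 26.1-fold for Ifit1.

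**Figure D1:**
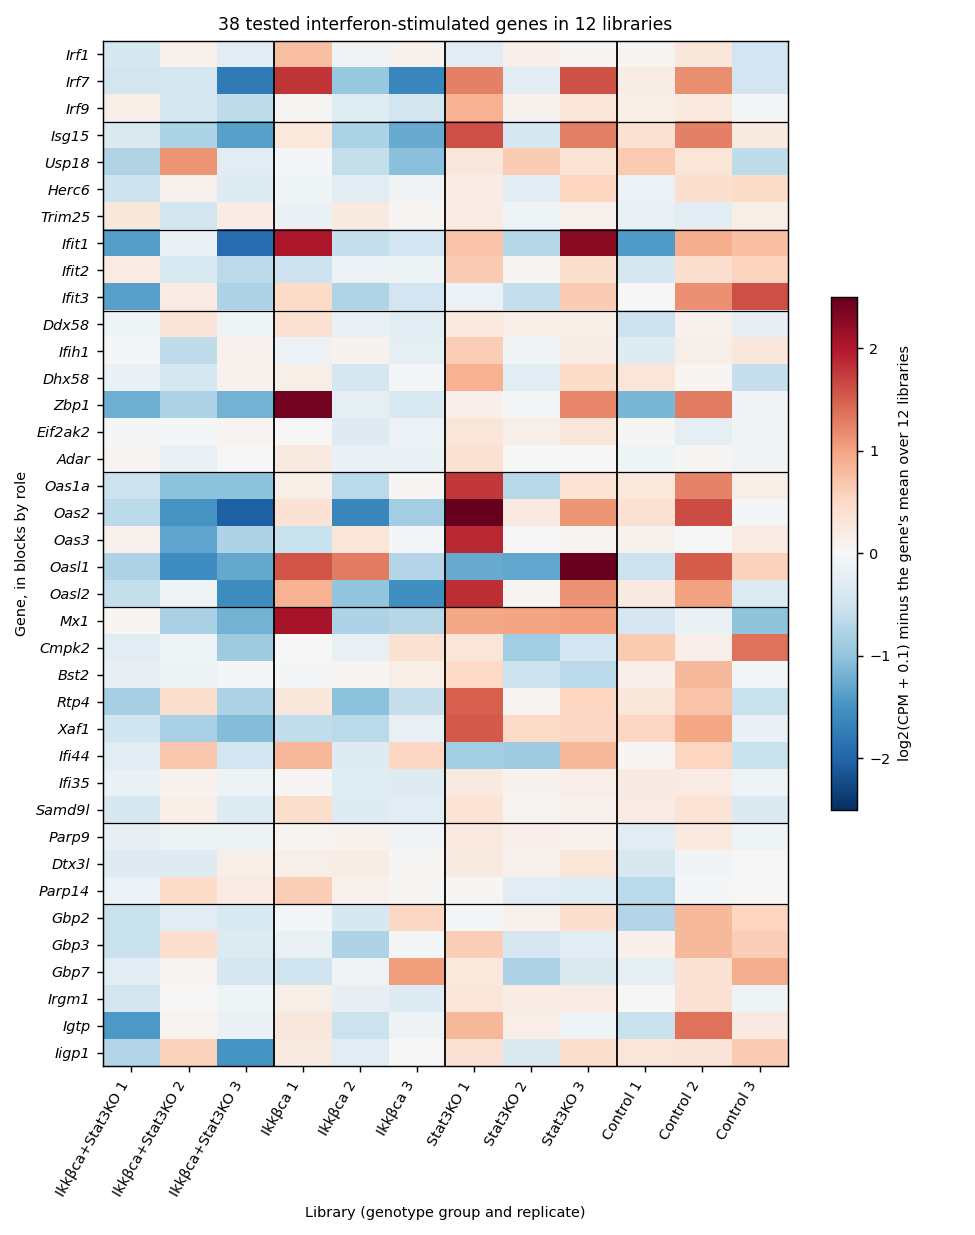
Each row is 1 of the 38 tested members, in blocks by role, and each column 1 library; colour gives log2(CPM + 0.1) minus the gene's own mean over the 12 libraries. Ikkβca+Stat3KO replicates 1 and 3 are mostly blue (median deviation of the members -0.38 and -0.40 log2), while Stat3KO replicate 1 (0.35) and Control replicate 2 (0.36) are mostly red.

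Active IKK2 went with lower values of most members. In the comparison of the 6 libraries with active IKK2 against the 6 without, which averages Ikkβca against Control and Ikkβca+Stat3KO against Stat3KO, 33 of 38 tested members (86.8%) had a log2 fold change below 0, against 49.9% of the 14134 genes tested. The members' median was -0.44 and that of all genes 0.00. Ikkβca and Control also differ in Cre, so the average is not of active IKK2 alone. The keratin share given above was also uneven between the libraries with and without active IKK2, and its part was not tested. By replicate, the members' median deviation was -0.38, -0.12 and -0.40 log2 in Ikkβca+Stat3KO and 0.15, -0.30 and -0.16 in Ikkβca. It was 0.35, -0.001 and 0.32 in Stat3KO and 0.03, 0.36 and -0.03 in Control. Only Xaf1 fell past the threshold of an adjusted p of 0.05, 1 of 38 members where 0.594% of all genes were called lower, and no member was called higher, where 2.12% of genes were. At an unadjusted p under 0.05, 11 members were lower and 1 was higher, and 7.52% and 8.0% of all genes were so. The 11 became 6 without Control replicate 2, Ikkβca replicate 2, Ikkβca replicate 3 or Stat3KO replicate 1, and 7 without Ikkβca+Stat3KO replicate 3. They became 15 without Ikkβca replicate 1, 14 without Ikkβca+Stat3KO replicate 2 and 12 without Stat3KO replicate 2. Without Control replicate 1, and in the libraries low in Xist, there were 13. In each fit without 1 library 31 or more members stayed below 0. DESeq2 called 3 members lower (Isg15, Oas2 and Xaf1) and 0 higher, where it called 306 of 15596 genes lower and 539 higher. The count of calls depended on single libraries. It ranged from 0 to 3 when each library was left out in turn, and it was 0 without Control replicate 1 or 2, Ikkβca replicate 2, Stat3KO replicate 1, or Ikkβca+Stat3KO replicate 2 or 3.

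Xaf1 (chr11:72301629-72313733, plus strand, GRCm38), which codes for a factor that binds the apoptosis inhibitor XIAP, had 1.55, 1.22 and 0.994 CPM in Ikkβca+Stat3KO. Ikkβca libraries had 1.42, 1.35 and 1.93 CPM, Stat3KO libraries 6.62, 3.12 and 3.22, and Control libraries 3.24, 4.44 and 1.98. All 6 libraries with active IKK2 lay below all 6 without it, a split that 0.644% of genes showed in that direction. Xaf1 fell by 1.40 ± 0.29 on the log2 scale with active IKK2 (SE; edgeR adjusted p = 0.0262; exact two-sided permutation p = 0.005 within Stat3 state, the smallest this design allows). Leaving out each library gave -1.54 to -1.18, with adjusted p from 0.0180 to 0.0754 in edgeR. The call was lost in 7 of these 12 fits, those without Control replicate 1 or 2, Ikkβca replicate 1 or 2, Stat3KO replicate 1, or Ikkβca+Stat3KO replicate 2 or 3. Without the 2 gastric-rich libraries the value was -1.46 (adjusted p = 0.0558 in edgeR). In the 8 libraries low in Xist it was -1.23 (adjusted p = 0.244 in edgeR), so the call does not hold there. Within the libraries numbered 1, with 1 per group and no test, Xaf1 was 1.55 and 1.42 CPM with active IKK2 and 6.62 and 3.24 CPM without.

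**Figure D2:**
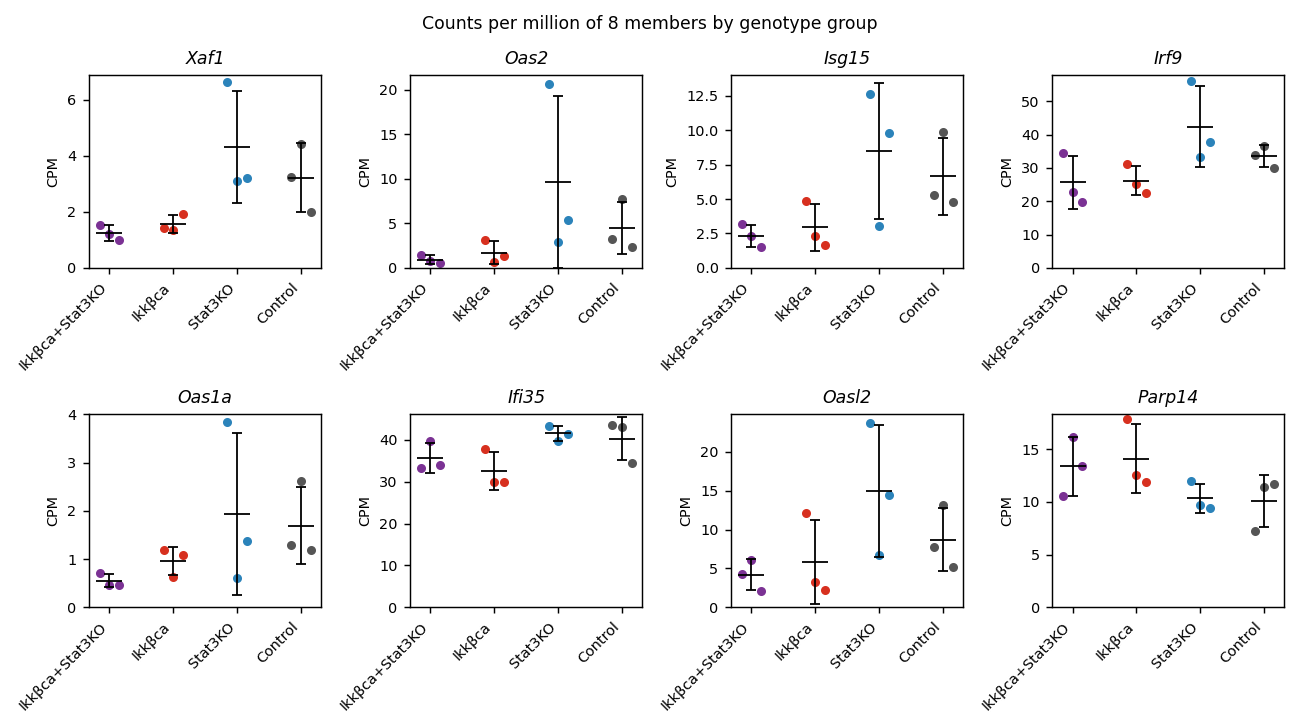
Points are CPM in single libraries of the 4 groups for 8 members, and bars give mean ± SD (n = 3). For Xaf1 every library with active IKK2 (at most 1.93 CPM) lies below every library without it (at least 1.98 CPM), while the groups of the other 7 members overlap on that split.

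Among the interferon regulatory factors, Irf9, a DNA-binding factor of the type I interferon response, had 34.6, 22.6 and 19.7 CPM in Ikkβca+Stat3KO, 31.2, 25.1 and 22.4 in Ikkβca, 56.1, 33.3 and 37.9 in Stat3KO, and 33.8, 36.6 and 30.0 in Control. One library of each active IKK2 group reached into the range of the others. The active IKK2 difference was -0.54 ± 0.17 (edgeR adjusted p = 0.144), which did not pass. Irf7, the factor that amplifies type I interferon, varied within groups, with 3.15, 3.19 and 1.20 CPM in Ikkβca+Stat3KO, 15.4, 2.22 and 1.33 in Ikkβca, 10.6, 3.60 and 13.4 in Stat3KO, and 4.98, 9.83 and 3.09 in Control. Its highest library was the gastric-rich Ikkβca replicate 1. Irf1, which lies at the head of interferon gamma and NF-κB responses, had 16.6, 23.6 and 18.1 CPM in Ikkβca+Stat3KO, 37.1, 20.8 and 23.4 in Ikkβca, 18.4, 24.0 and 23.1 in Stat3KO, and 23.1, 26.9 and 15.8 in Control, so its groups overlapped throughout. Reads of Irf9 and Irf7 overlap exons of Rnf31 and Phrf1, and how the authors' counting treated strand is not given in the sources used here.

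The ISG15 system attaches the ubiquitin-like protein ISG15 to other proteins and removes it again. Isg15 itself had 3.15, 2.32 and 1.52 CPM in Ikkβca+Stat3KO, 4.87, 2.32 and 1.63 in Ikkβca, 12.6, 3.03 and 9.82 in Stat3KO, and 5.31, 9.83 and 4.76 in Control. Stat3KO replicate 2 and Control replicate 3 were the libraries without active IKK2 that lay below the highest library with it, Ikkβca replicate 1. The difference was -1.52 ± 0.40 (edgeR adjusted p = 0.0808; exact permutation p = 0.02). It passed in DESeq2 (adjusted p = 0.00374). Usp18, which takes ISG15 off and brakes the type I receptor, had 10.2, 36.7 and 14.3 CPM in Ikkβca+Stat3KO, 16.5, 11.4 and 8.25 in Ikkβca, 20.9, 26.8 and 21.9 in Stat3KO, and 27.2, 21.1 and 10.97 in Control, with the highest and the lowest library both under active IKK2. Herc6, an ISG15 ligase in mice, and Trim25 overlapped between the libraries with and without active IKK2.

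The OAS family, whose active members make the second messenger that switches on RNase L, had the lowest median of the 8 roles, at -1.21, and all 5 members were below 0, from -2.35 to -0.90. None was called. Oas2 had 1.502, 0.813 and 0.523 CPM in Ikkβca+Stat3KO, 3.17, 0.725 and 1.29 in Ikkβca, 20.7, 2.90 and 5.40 in Stat3KO, and 3.24, 7.79 and 2.36 in Control. Ikkβca replicate 1 reached the range of the libraries without active IKK2, and Stat3KO replicate 1 stood far above the rest. The Oas2 difference was -2.35 ± 0.57 (edgeR adjusted p = 0.0593; exact permutation p = 0.01), and it passed in DESeq2 (adjusted p = 0.000496) and without the 2 gastric-rich libraries in edgeR (-2.88, adjusted p = 0.0493). Oas1a had 0.701, 0.465 and 0.471 CPM in Ikkβca+Stat3KO, 1.18, 0.629 and 1.07 in Ikkβca, 3.83, 0.615 and 1.36 in Stat3KO, and 1.29, 2.61 and 1.18 in Control, with a difference of -1.31 ± 0.44 (edgeR adjusted p = 0.171). Oasl2 was at -1.21 ± 0.48 (edgeR adjusted p = 0.246). Oasl1, whose mouse product limits translation of Irf7, had 2.25, 1.28 and 1.57 CPM in Ikkβca+Stat3KO, 11.9, 9.77 and 2.32 in Ikkβca, 1.58, 1.54 and 22.2 in Stat3KO, and 2.68, 11.4 and 5.94 in Control. Its 3 highest libraries came from 3 different groups. Oas1 genes lie in a cluster of near copies, so the split of reads among them is uncertain.

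All 3 tested IFIT members, which bind viral RNA ends, were below 0, at -0.96 to -0.59, and none was called. Ifit3 had 0.350, 1.22 and 0.576 CPM in Ikkβca+Stat3KO, 1.51, 0.580 and 0.731 in Ikkβca, 0.946, 0.659 and 1.69 in Stat3KO, and 1.06, 2.46 and 3.43 in Control (-0.96 ± 0.43; edgeR adjusted p = 0.316). Ifit1 had 0.350, 0.929 and 0.209 CPM in Ikkβca+Stat3KO, 4.63, 0.677 and 0.731 in Ikkβca, 1.80, 0.615 and 5.45 in Stat3KO, and 0.335, 2.09 and 1.87 in Control. The 2 highest Ifit1 libraries were the gastric-rich ones. Ifit1 and Ifit3 each have near copies in mouse, and their split is uncertain.

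Sensors and RNA-acting effectors had a median of -0.22 over 6 genes, with 0 at an unadjusted p under 0.05 in the active IKK2 comparison. Ddx58, which codes for the RNA sensor RIG-I, had 16.3, 22.2 and 16.4 CPM in Ikkβca+Stat3KO, 22.8, 15.5 and 14.7 in Ikkβca, 21.0, 19.9 and 19.6 in Stat3KO, and 12.1, 18.9 and 15.3 in Control. Eif2ak2, or PKR, which halts translation on double-stranded RNA, had 18.3, 18.6 and 19.8 CPM in Ikkβca+Stat3KO, 19.0, 14.99 and 17.0 in Ikkβca, 23.3, 20.7 and 23.3 in Stat3KO, and 19.2, 16.0 and 17.7 in Control. For both genes all 3 Stat3KO libraries lay above all 3 Control libraries. Zbp1, a sensor of Z-form nucleic acid that can start cell death, rests on 2 to 50 counts per library. It had 0.1001, 0.174 and 0.105 CPM in Ikkβca+Stat3KO, 2.36, 0.290 and 0.258 in Ikkβca, 0.406, 0.351 and 0.982 in Stat3KO, and 0.112, 1.05 and 0.343 in Control.

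Of the 8 tested antiviral and other effectors, 7 were below 0. Ifi35 had 33.3, 39.7 and 34.1 CPM in Ikkβca+Stat3KO, 37.8, 29.9 and 29.8 in Ikkβca, 43.4, 39.7 and 41.5 in Stat3KO, and 43.4, 43.0 and 34.4 in Control, a difference of -0.26 ± 0.09 (edgeR adjusted p = 0.206). Bst2 had 8.26, 8.65 and 9.26 CPM in Ikkβca+Stat3KO, 9.22, 9.82 and 10.7 in Ikkβca, 13.4, 6.502 and 5.89 in Stat3KO, and 10.4, 16.6 and 9.30 in Control. The lowest Bst2 libraries were 2 of Stat3KO, not those with active IKK2. Mx1, the dynamin-like restriction factor that is defective in most laboratory mouse strains, rests on 3 to 49 counts per library and had 0.501, 0.232 and 0.157 CPM in Ikkβca+Stat3KO, 2.32, 0.242 and 0.258 in Ikkβca, 1.04, 1.05 and 1.09 in Stat3KO, and 0.335, 0.418 and 0.191 in Control.

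PARP9 and its partner DTX3L form an ADP-ribosylating ubiquitin ligase, and PARP14 is a related enzyme. Parp14 was the 1 member higher at an unadjusted p under 0.05 with active IKK2, with 10.6, 16.1 and 13.5 CPM in Ikkβca+Stat3KO, 17.8, 12.6 and 11.9 in Ikkβca, 11.9, 9.66 and 9.38 in Stat3KO, and 7.27, 11.4 and 11.7 in Control. The difference was 0.42 ± 0.17 (edgeR adjusted p = 0.258), and it did not pass. Dtx3l had 17.0, 16.9 and 23.3 CPM in Ikkβca+Stat3KO, 23.6, 24.2 and 21.7 in Ikkβca, 24.7, 22.9 and 26.0 in Stat3KO, and 16.0, 20.2 and 21.0 in Control. Both single-change groups lay wholly above Control for Dtx3l, while 2 Ikkβca+Stat3KO libraries lay within the Control range. Parp9 and Dtx3l lie head to head with overlapping exons on opposite strands.

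The 6 interferon-inducible GTPases, which act on vacuoles that hold pathogens, were all below 0 (median -0.45). Gbp2 had 4.16, 5.17 and 4.76 CPM in Ikkβca+Stat3KO, 6.10, 4.69 and 8.86 in Ikkβca, 5.99, 6.72 and 8.34 in Stat3KO, and 3.69, 10.9 and 9.03 in Control, with the lowest and the highest library both in Control. Gbp3 had 1.70, 3.43 and 1.99 CPM in Ikkβca+Stat3KO, 2.27, 1.45 and 2.45 in Ikkβca, 3.97, 1.89 and 2.07 in Stat3KO, and 2.80, 4.55 and 3.96 in Control. Guanylate-binding protein genes are close copies of each other, so their split is uncertain.

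**Figure D3:**
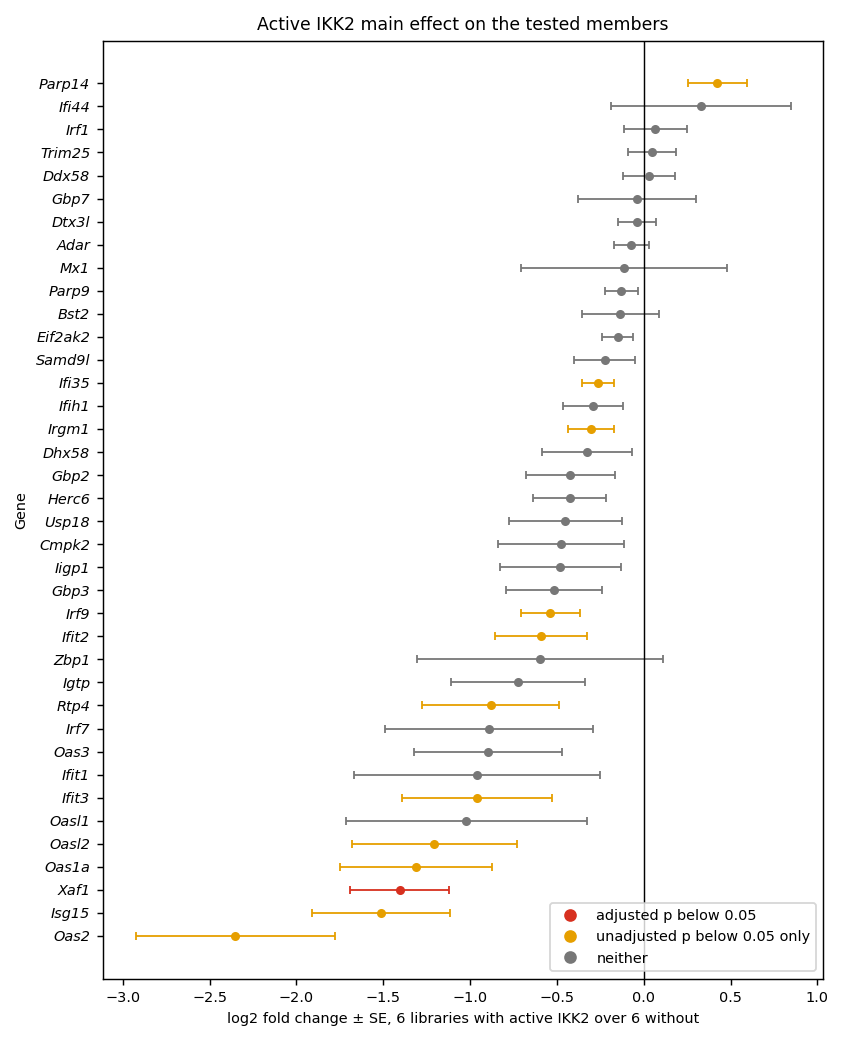
Log2 fold changes ± SE of the 38 tested members between the 6 libraries with active IKK2 and the 6 without, in order of size. Xaf1 (-1.40) is the 1 member with an edgeR adjusted p under 0.05, where DESeq2 called 3 (Isg15, Oas2 and Xaf1), 33 of 38 members lie left of 0, and Parp14 (0.42) is furthest to the right.

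Between single groups, edgeR called no member in any comparison, while DESeq2 called 3 lower in Ikkβca+Stat3KO against Stat3KO (98 of 15243 genes were). Against Control, Ikkβca had 25 of 38 members below 0, where 49.3% of all genes were, with a median of -0.19. The 25 became 21 of 39, nearer the all-gene share, without Control replicate 2 or Ikkβca replicate 2. They became 30 of 39 without Ikkβca replicate 1 and 31 of 38 in the libraries low in Xist. DESeq2 called 0 members, where it called 319 of 15596 genes higher and 100 lower. By edgeR 0 members were called, where 0.899% of genes were called higher and 0.0566% lower. At an unadjusted p under 0.05, 3 members were lower (Xaf1, Ifi35 and Gbp3) and 0 higher, where 6.0% and 7.03% of genes were. The 3 became 0 without Control replicate 2 or Ikkβca replicate 2, 1 without Ikkβca replicate 3, 6 without Ikkβca replicate 1 and 8 in the libraries low in Xist. In 3 members all Ikkβca libraries lay below all Control libraries (8.21% of genes) and in 2, Dtx3l and Parp14, above them (9.34%). The 3 v 3 exact permutation p cannot go below 0.1. Xaf1 was at -1.03 ± 0.40 (edgeR adjusted p = 0.320), Ifi35 at -0.31 ± 0.13 (0.367), Gbp3 at -0.87 ± 0.39 (0.382) and Ifit3 at -1.30 ± 0.60 (0.389).

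Stat3KO against Control had 27 of 38 members above 0 (47.3% of all genes) and a median of 0.19. The 11 members below 0 became 18 of 39 without Stat3KO replicate 1, 16 of 39 without Control replicate 3, 15 of 39 without Stat3KO replicate 3 and 18 of 38 in the libraries low in Xist. DESeq2 called 0 members, where it called 42 of 15243 genes higher and 62 lower. By edgeR 0 members and 0 of all genes were called. At an unadjusted p under 0.05, 2 members were higher (Eif2ak2 and Dtx3l) and 1 lower (Cmpk2), where 3.85% and 3.65% of genes were. Without Stat3KO replicate 1 these became 0 higher and 3 lower, without Stat3KO replicate 3 0 higher and 2 lower, and in the libraries low in Xist 1 higher and 4 lower. None was lower without Control replicate 3 or Stat3KO replicate 2. Eif2ak2 was at 0.35 ± 0.13 (edgeR adjusted p = 0.571), Dtx3l at 0.37 ± 0.16 (0.639) and Mx1 at 1.76 ± 0.83 (0.676). Cmpk2, a mitochondrial nucleotide kinase beside Rsad2, had 0.451, 0.523 and 0.262 CPM in Ikkβca+Stat3KO, 0.567, 0.484 and 0.774 in Ikkβca, 0.721, 0.264 and 0.382 in Stat3KO, and 0.951, 0.627 and 1.60 in Control (Stat3KO against Control -1.22 ± 0.51; edgeR adjusted p = 0.626). In 4 members (Ddx58, Dtx3l, Eif2ak2 and Mx1) all Stat3KO libraries lay above all Control libraries, which 6.96% of genes showed, and in 0 below (6.1%).

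Ikkβca+Stat3KO against Control had the lowest median of the comparisons with Control, at -0.51, with 31 of 38 members below 0 (49.7% of genes). No member was called by DESeq2, where 227 of 14890 genes were called higher and 224 lower. By edgeR 0 members were called, where 0.318% of genes were called lower and 0.566% higher. At an unadjusted p under 0.05, 6 members were lower and 0 higher, where 5.85% and 5.65% of genes were. The 6 became 1 without Ikkβca+Stat3KO replicate 3, 3 without Control replicate 2 and 10 in the libraries low in Xist, with 29 or more below 0 in each fit without 1 library. Those 6 were Xaf1 (-1.35 ± 0.41; edgeR adjusted p = 0.196), Ifit3 (-1.71 ± 0.62), Oas2 (-2.22 ± 0.83), Isg15 (-1.50 ± 0.57), Cmpk2 (-1.37 ± 0.52) and Oas1a (-1.62 ± 0.64), the last 5 with edgeR adjusted p from 0.292 to 0.347. In 7 tested members all Ikkβca+Stat3KO libraries lay below all Control libraries (7.85% of genes) and in 0 above (7.2%).

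Ikkβca+Stat3KO against Stat3KO, which share Cre and the Stat3 allele, gave a median of -0.47, with 34 of 38 members below 0 (47.9% of genes). No member was called by edgeR, where 0.0495% of genes were called lower and 0.41% higher, but DESeq2 called 3 lower (Isg15, Oas2 and Xaf1). Of all genes DESeq2 called 98 of 15243 lower and 194 higher. At an unadjusted p under 0.05 in edgeR, 11 members were lower and 0 higher, where 4.54% and 4.41% of genes were. Xaf1 was at -1.78 ± 0.41 (edgeR adjusted p = 0.127), Oas2 at -3.34 ± 0.85 (0.171), Isg15 at -1.86 ± 0.57 (0.285) and Irf9 at -0.72 ± 0.24 (0.340). In 11 members the 2 groups did not overlap, with Ikkβca+Stat3KO lower (6.87% of genes), and in 0 was it higher (6.06%). Without Stat3KO replicate 1, the library highest in 12 of 38 members, 4 in place of 11 members were lower at an unadjusted p under 0.05, and without Ikkβca+Stat3KO replicate 3, the lowest in 11, there were 6.

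Ikkβca+Stat3KO against Ikkβca gave a median of -0.29, and 0 members were called by edgeR or DESeq2. Of all genes edgeR called 0, and DESeq2 called 52 of 14890 higher and 79 lower. In edgeR 31 of 38 members were below 0 (52.3% of genes). That share came close to the all-gene share without Ikkβca replicate 1 (22 of 39), without the gastric-rich libraries (21 of 38) and in the libraries low in Xist (20 of 38). At an unadjusted p under 0.05 only Zbp1 was lower and 0 were higher, where 5.59% and 4.29% of genes were. The 1 lower became 0 without Ikkβca replicate 1 or Ikkβca+Stat3KO replicate 1, 3 without Ikkβca replicate 2, Ikkβca replicate 3 or Ikkβca+Stat3KO replicate 2, and 2 without any 1 Stat3KO library. Zbp1 was at -2.89 ± 1.08 (edgeR adjusted p = 0.456), Oasl1 at -2.22 ± 1.03 (0.513), Mx1 at -1.63 ± 0.84 (0.548) and Ifit1 at -2.02 ± 1.05 (0.550). In 3 members, Oasl1, Parp9 and Zbp1, all Ikkβca+Stat3KO libraries lay below all Ikkβca libraries (7.54% of genes) and in 0 above (7.12%). Ikkβca replicate 1 was the highest library of Zbp1 and Mx1: the Mx1 value turned to 0.25 without it.

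Whether Stat3 loss changed the response to active IKK2 was tested as an interaction. Control, the only group without Cre, enters it and both effects averaged over groups. Cre itself is therefore not separated from them. By edgeR and DESeq2 0 members were called, where edgeR called 0 of all genes and DESeq2 0 of 18426 higher and 5 lower. In edgeR 31 of 38 members were below 0 (50.5% of genes, member median -0.30). In the libraries low in Xist 19 of 38 were below 0. Dtx3l (-0.64 ± 0.22) and Mx1 (-3.38 ± 1.18) were lower at an unadjusted p under 0.05 with an edgeR adjusted p of 0.99997, and 0 were higher, where 2.74% and 1.92% of genes were. The 2 lower became 5 without Control replicate 2 or Stat3KO replicate 2, 4 without Ikkβca replicate 2 or 3, and 1 without Ikkβca replicate 1. The effect of Stat3 loss averaged over both IKK2 states had a median of 0.01, with 18 of 38 members below 0 (51.9% of genes). It called 0 members by edgeR or DESeq2. Of all genes DESeq2 called 160 of 14890 higher and 215 lower, and edgeR 0.0637% higher and 0.198% lower. Eif2ak2 (0.25 ± 0.09; edgeR adjusted p = 0.278) and Cmpk2 (-0.89 ± 0.36; 0.341) were the members at an unadjusted p under 0.05, where 5.88% of genes were higher and 6.81% lower. Over the fits without 1 library 0 to 3 members were higher and 0 to 3 lower, with 3 higher without Ikkβca replicate 1 and 3 lower without Control replicate 1 or Ikkβca+Stat3KO replicate 2. In 0 members did the 6 libraries of one side lie wholly above (0.467% of genes) or below (0.573%) the other 6. Next came Zbp1 (-1.35 ± 0.72) and Gbp7 (-0.61 ± 0.34), another guanylate-binding protein. Gbp7 had 1.35, 1.74 and 1.20 CPM in Ikkβca+Stat3KO, 1.135, 1.55 and 3.48 in Ikkβca, 1.98, 0.923 and 1.25 in Stat3KO, and 1.40, 2.14 and 3.16 in Control, and its groups overlapped.

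**Figure D4:**
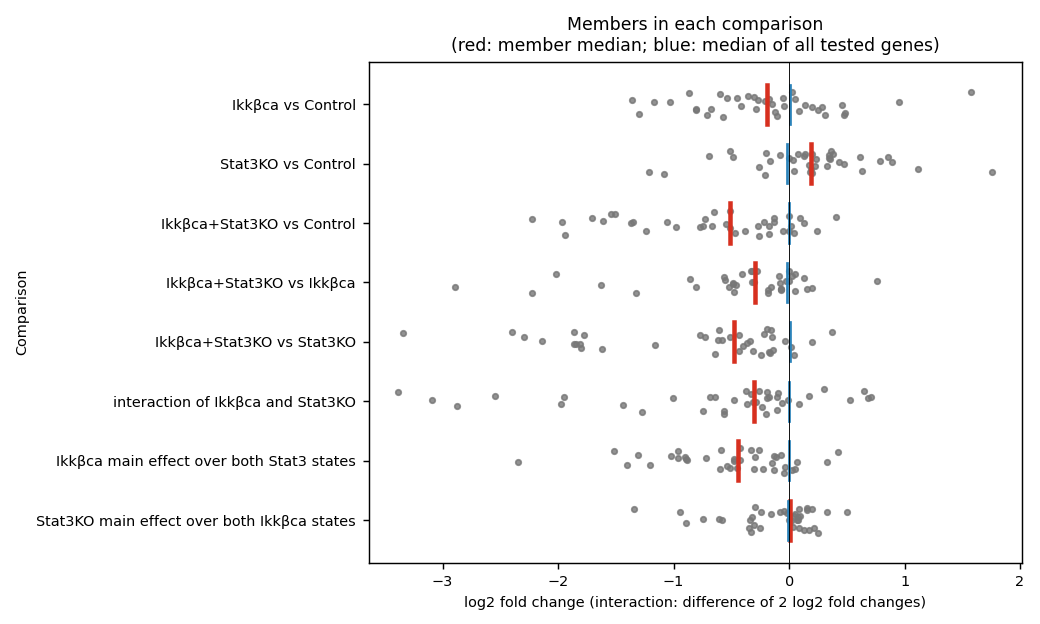
Each grey point is the log2 fold change of 1 of 38 tested members in 1 of 8 comparisons; red bars are member medians and blue bars the medians of all 14134 tested genes. The member median lies furthest left in Ikkβca+Stat3KO against Control (-0.51) and right of 0 in Stat3KO against Control (0.19); comparisons share libraries and are not independent.

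The upstream pathway was followed in 119 further genes, of which 117 were in the files and 80 were tested. Ligand transcripts were almost absent. Of 21 listed interferon genes, 16 had 0 counts in every library, among them Ifng, and a count of 0 allows up to 3 counts, or 0.114 to 0.174 CPM by library. Ifnb1 and Ifnk, the keratinocyte interferon, had 1 count each over all libraries, and no listed ligand had more than 13. Of 6 receptor genes, 1 was called higher with active IKK2 and 0 lower, where 2.12% and 0.594% of all genes were. Ifngr2, a chain of the interferon gamma receptor, had 36.5, 36.8 and 52.4 CPM in Ikkβca+Stat3KO, 42.5, 51.5 and 50.2 in Ikkβca, 23.4, 25.6 and 31.2 in Stat3KO, and 22.03, 29.2 and 34.5 in Control. The 6 libraries with active IKK2 were all above the 6 without (1.52% of genes), and Ifngr2 rose by 0.70 ± 0.14 (edgeR adjusted p = 0.0241). Its partner Ifngr1 was at 0.29 ± 0.14 (0.356), Ifnar1 of the type I receptor at 0.21 ± 0.07 (0.198) and Ifnlr1 of the type III receptor, named Il28ra in the files, at -0.14 ± 0.14 (0.674). Stat2, which acts with Irf9, was at -0.01 ± 0.18 (edgeR adjusted p = 0.993). Of 15 sensing genes and 9 brakes 0 were called by edgeR in this comparison. At an unadjusted p under 0.05, 5 and 0 were higher and 1 and 0 lower, where 8.0% and 7.52% of all genes were.

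In the other 7 comparisons the 80 tested pathway genes gave 1 call, Slfn2 in Ikkβca against Control, where 0.899% of all genes were called higher. Among 45 tested interferon-stimulated genes outside the 40, active IKK2 gave 2 called higher and 2 lower, and their median was 0.01. Of all genes 2.12% were called higher with active IKK2 and 0.594% lower. Slfn2, a Schlafen gene best known in leukocytes, had 4.16, 7.38 and 7.17 CPM in Ikkβca+Stat3KO, 9.32, 10.01 and 10.1 in Ikkβca, 1.85, 2.20 and 1.91 in Stat3KO, and 1.79, 4.55 and 1.56 in Control. It rose by 1.77 ± 0.27 (edgeR adjusted p = 0.00607), and by 1.90 ± 0.39 in Ikkβca against Control (0.0467), a call lost in 10 of the 12 fits that left out a library. Gbp6 was at 0.946 to 1.05 CPM in the 6 libraries with active IKK2 and 0.0901 to 0.836 CPM in the 6 without (1.61 ± 0.37; edgeR adjusted p = 0.0422). Listed as Ifi27 and named Ifi27l1 in the files, a small mitochondrial interferon-induced gene was at 105 to 138 CPM with active IKK2 and at 140.1 to 187 CPM without (-0.50 ± 0.09; edgeR adjusted p = 0.0147). Nampt, the NAD salvage enzyme, was at 39.9 to 49.1 CPM with active IKK2 and 51.2 to 68.8 CPM without (-0.34 ± 0.08; edgeR adjusted p = 0.0460). The Gbp6 call was lost in 10 of the 12 such fits, that of Nampt in 12 and that of Ifngr2 in 7. In the 8 libraries low in Xist none of these 5 genes passed with active IKK2, with edgeR adjusted p from 0.0988 for Slfn2 to 0.346 for Gbp6.

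Markers of some other cell types differed between groups, and in bulk RNA fewer cells of a type and less RNA per cell cannot be told apart. Summed over 9 dendritic and Langerhans markers, libraries held 145 to 435 CPM in Ikkβca+Stat3KO, 470.2 to 577 in Ikkβca, 69.2 to 148 in Stat3KO and 98.3 to 240 in Control, and 5 of 6 tested markers were called higher with active IKK2. For this and the marker counts below, 2.12% of all genes were called higher with active IKK2. At an unadjusted p under 0.05 in edgeR 8.0% were higher, and 49.9% of genes were below 0. The 4 pan-leukocyte markers summed to 14.2 to 43.7 CPM in Ikkβca+Stat3KO, 47.8 to 66.2 in Ikkβca, 6.05 to 17.8 in Stat3KO and 13.6 to 31.0 in Control, with 0 called and 4 of 4 higher at an unadjusted p under 0.05. Fibroblast markers summed to 515 to 1178 CPM in Ikkβca+Stat3KO, 541 to 1345 in Ikkβca, 745 to 1901 in Stat3KO and 687 to 2237 in Control, and 4 of 5 were below 0 with active IKK2. The 10 macrophage and monocyte markers summed to 55.6 to 113 CPM in Ikkβca+Stat3KO, 134 to 373 in Ikkβca, 64.8 to 153 in Stat3KO and 65.1 to 154 in Control, with 0 called and 1 of 9 higher at an unadjusted p under 0.05. In Ikkβca replicate 1, the library at 373 CPM, Lyz2 alone made up 269. T and NK cell markers summed to at most 3.14 CPM in Ikkβca+Stat3KO, 7.90 in Ikkβca, 1.41 in Stat3KO and 4.81 in Control, with 0 called and 3 of 5 higher at an unadjusted p under 0.05. B and plasma cell markers summed to at most 0.946 CPM in any library. Neutrophil markers overlapped between groups, at most 12.5 CPM in Ikkβca+Stat3KO, 29.5 in Ikkβca, 13.0 in Stat3KO and 21.2 in Control. Most of these sums was Cxcr2, while Csf3r, Mpo and Retnlg were each at most 0.473 CPM in any library. The 6 markers of plasmacytoid dendritic cells, which make much type I interferon, summed to 43.5 to 59.4 CPM in Ikkβca+Stat3KO, 43.6 to 45.5 in Ikkβca, 40.6 to 52.1 in Stat3KO and 32.2 to 35.8 in Control, most of it Tcf4, with 0 called by edgeR and 2 of 4 tested markers higher at an unadjusted p under 0.05. No dendritic, pan-leukocyte or fibroblast marker was at 0 counts throughout a group. Skeletal muscle markers reached 1343 CPM in Stat3KO replicate 3. The part of these cells, of the keratin share or of the gastric and muscle transcripts in the members' values was not tested.

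**Figure D5:**
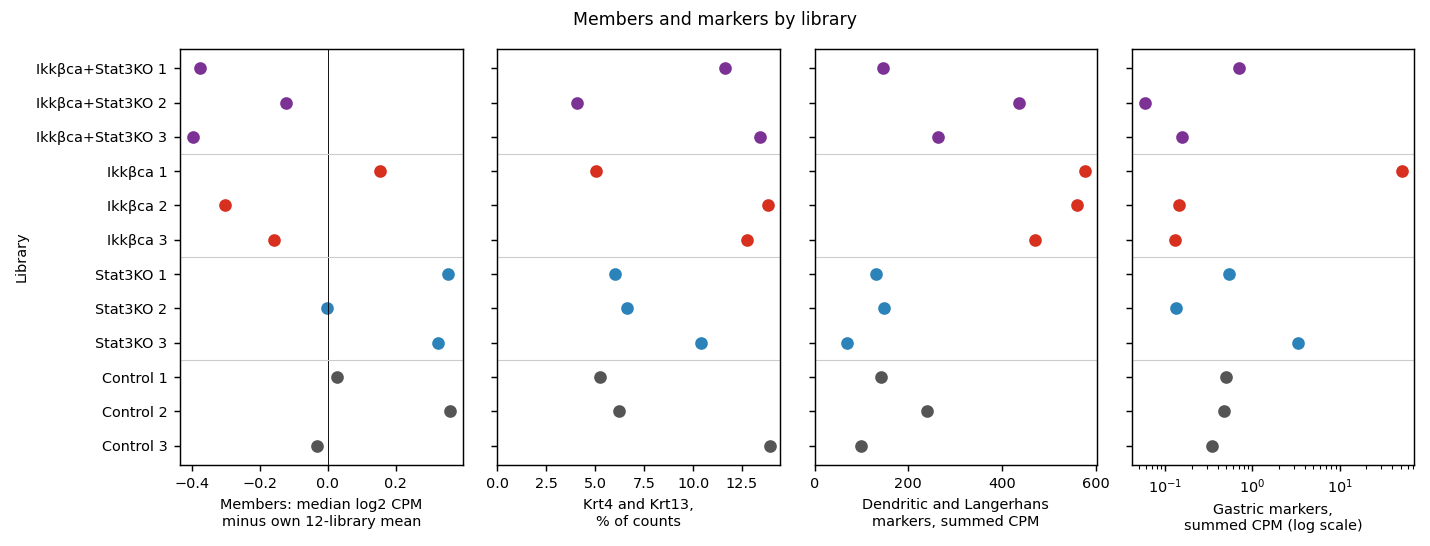
By library, from left to right: median log2 CPM of the members minus each gene's own mean, the share of counts in Krt4 and Krt13, and the summed CPM of dendritic and gastric markers (log axis for the last). Ikkβca+Stat3KO replicates 1 and 3 have the lowest member medians (-0.38 and -0.40), and Ikkβca replicate 1 stands apart at 51.2 CPM of gastric markers, most of it Tff1.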

How the data were processed

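PolyA RNA of mouse oesophageal epithelium was measured in 12 libraries. The deposited files hold counts per gene: per the submitters' processing notes cutadapt 1.13, STAR, HTSeq 0.6.1p1, DESeq2 and the build mm10 were used, and strand handling is not given in the sources used here. From these counts edgeR 4.0.16 (TMM scaling, filterByExpr, robust quasi-likelihood fit of all 4 groups, R 4.3.3) tested 14134 of 23337 genes in 8 comparisons, with Benjamini-Hochberg adjustment over all genes tested and calls at 0.05. CPM (counts scaled to a fixed library total) use TMM-scaled library sizes. Totals of 14816468 to 30188363 counts limit genes of few counts. Single values were also compared by exact two-sided permutation, within Stat3 state for comparisons of 6 against 6 libraries. The pipeline was tested on simulated data.

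Members and lists were chosen with earlier results of these data known. Full values are given for members called anywhere, the 4 with the smallest p in each comparison, and 10 of fixed interest. Some others are named after their values were seen. Deviations of same-numbered libraries correlated at -0.41 to 0.45. All 3 pairs exceeded 0.1 only in Ikkβca+Stat3KO against Stat3KO (0.12 to 0.26), where the block left 0 members called; elsewhere numbers were not taken as pairs. No 2 libraries were copies. Alternatives were DESeq2 size factors, no count filter, the DESeq2 1.42.0 Wald test, a replicate block, leaving out each library, and fits of 6 libraries. Leaving out 2 gastric-rich libraries and the 4 libraries high in Xist were chosen after seeing the data. Gene positions are from GENCODE, on GRCm38, and promoters from RefSeq, on GRCm38.p6. 1 listed pathway gene is not reported here.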

Additional observations from a re-analysis of the deposited data

How the results depend on the processing

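Over all comparisons, 286 counts of called members stayed within 1.5 times their value and 12 moved. Most of the 286 were counts of 0 that stayed at 0. Only the count called lower for active IKK2 over both Stat3 states was above 0 in the main fit. All moves fell on that count, except the DESeq2 one in Ikkβca+Stat3KO against Stat3KO. For active IKK2 over both Stat3 states 1 member was called lower, and the DESeq2 Wald test gave 3, where it called 306 of 15596 genes lower. With the replicate block 3 were lower in edgeR (Irf9, adjusted p = 0.0315, Oas2, 0.0321, and Xaf1, 0.0335), where 143 of 14134 genes were. Over these groups the correlations do not show the numbers to pair the libraries, though number 1 is the library high in Xist in every group. In the 8 libraries low in Xist 0 were. Leaving out single libraries gave 0 to 3, as above. In Ikkβca+Stat3KO against Stat3KO 0 became 3 with DESeq2, where it called 98 of 15243 genes lower. The Xaf1 value stayed below 0 under each alternative run, from -1.54 to -1.18. Apart from the counts of called members, 1088 values stayed the same, and these include member medians as well as single-gene values. For a single gene, the same means that direction and side of the threshold were kept. Of the single-gene values, 12 gained and 60 lost a call, and 4 reversed. Mx1 in Ikkβca+Stat3KO against Ikkβca ranged from -2.22 to 0.25 over fits without single libraries, with 0.25 without Ikkβca replicate 1, and was 0.25 without both gastric-rich libraries. Oasl1 in Ikkβca+Stat3KO against Stat3KO ranged from -2.79 to 0.12, with 0.12 without Stat3KO replicate 3, and was 0.12 without both gastric-rich libraries. These 2 genes rest on single high libraries, and for the other changes the cause was not tested. Members of under 1 CPM, among them Zbp1 and Mx1, are limited by their counts.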
